A study of Drosophila melanogaster with 3 samples.

Results

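Peaks of GFP-tagged rgr at one-strand protein-coding promoters are binding regions whose summit lies within 500 bp of the annotated start of a protein-coding transcript, with all such starts on a single DNA strand. Of the 8551 peaks in the optimal list that the authors derived by the irreproducible discovery rate, a measure of how far replicates rank the same peaks alike, 2558 met this rule. That is 29.9% of the list (exact binomial 95% interval 28.9% to 30.9%, counting error only). For comparison, 1093 peaks lay at divergent promoters, where starts on both strands fall within 500 bp of the summit, 245 lay near starts of noncoding genes only, and 4655 lay away from any annotated start. The rule used only position and annotation, not the strength of a peak.

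Chromatin immunoprecipitation with an antibody against GFP was followed by sequencing in whole wandering larvae of the third instar of Drosophila melanogaster, males and females pooled, age not known. The larvae came from a transgenic line that stably carries rgr with GFP at its C terminus. The labels do not say whether the tagged gene replaced the native one or was added to it, and since whole animals were used, the tissue behind a peak is unknown. The 3 biological replicates formed 1 group, all compared with 1 control alignment, so there was no second condition.

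A promoter is the stretch around a transcript start where RNA polymerase II and the general factors assemble. In flies, genes often lie head to head and share a divergent promoter, whereas a one-strand promoter serves genes that are read in a single direction. Fly core promoters carry short recurring elements: the TATA box, bound by TBP just upstream of the start of many regulated genes, the initiator at the start, the downstream promoter element, and, at many broadly active genes, the DNA replication-related element (DRE), bound by DREF and BEAF-32, and the element bound by M1BP.

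The sequences under 9 peaks show the kinds of site that the results turn on. Each runs 5′ to 3′ on the strand of the gene, from 50 bp on one side of the summit to 50 bp on the other. Where the start came first, the window ends at the start base. They were read from the RefSeq copy of dm6. In the first set, of strong peaks that hold a DRE at the summit, capitals mark the DRE word TATCGATA. It begins 41 bp upstream of the start of eEF1gamma, a translation elongation factor subunit (chr3R:29220085-29220172, plus strand), 42 bp upstream of CG7006 (chr3R:24850535-24850627, plus strand) and 40 bp upstream of RpL27, a ribosomal protein of the large subunit (chr3R:25685051-25685116, minus strand).
eEF1gamma: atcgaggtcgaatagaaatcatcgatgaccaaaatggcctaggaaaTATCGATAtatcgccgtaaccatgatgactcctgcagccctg
CG7006: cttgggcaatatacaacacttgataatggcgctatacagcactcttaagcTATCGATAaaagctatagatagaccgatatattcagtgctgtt
RpL27: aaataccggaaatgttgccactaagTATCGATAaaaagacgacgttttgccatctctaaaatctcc

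The second set shows the M1BP word GGTCACAC (GTGTGACC on the other strand), again in capitals. Vha68-2 encodes a subunit of the vacuolar proton pump (chr2L:12974142-12974242, plus strand), and its word lies on the other strand 163 bp upstream of the start. Meltrin encodes a membrane metalloprotease (chr3R:14697292-14697353, minus strand), with the word 46 bp upstream. Rnp4F encodes an RNA-binding protein (chrX:5322696-5322759, minus strand), has the word 36 bp upstream and holds a DRE as well, so that both are in capitals.
Vha68-2: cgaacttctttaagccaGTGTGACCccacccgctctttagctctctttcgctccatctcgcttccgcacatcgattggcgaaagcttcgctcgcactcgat
Meltrin: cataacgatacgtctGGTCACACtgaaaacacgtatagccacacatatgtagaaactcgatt
Rnp4F: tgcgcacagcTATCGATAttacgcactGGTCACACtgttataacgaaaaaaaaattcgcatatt

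The third set shows peaks that hold the word TATAAA of the TATA box at the summit, in capitals, but away from the position where a TATA box works. CG18549 (chr3R:12449132-12449232, plus strand) has it 142 bp upstream. Gapdh2, a glycolytic enzyme (chrX:15867942-15868042, plus strand), has its reverse complement 194 bp upstream. CG13921 (chr3L:1746727-1746827, plus strand) has it 132 bp upstream. A or T made up 75.2%, 74.3% and 66.3% of these windows, in the order named. The windows of the first set had 54.5%, 62.4% and 62.1% and those of the second 45.5%, 59.7% and 62.5%. Vha68-2, the lowest of the 9, has its summit 130 bp upstream of the start.
CG18549: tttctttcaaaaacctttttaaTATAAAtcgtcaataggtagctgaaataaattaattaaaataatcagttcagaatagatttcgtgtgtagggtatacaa
Gapdh2: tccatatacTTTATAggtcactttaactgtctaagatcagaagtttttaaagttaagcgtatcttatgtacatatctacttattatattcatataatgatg
CG13921: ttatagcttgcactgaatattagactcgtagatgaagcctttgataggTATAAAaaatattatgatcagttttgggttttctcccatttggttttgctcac

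One-strand promoter peaks spread over a long stretch upstream of the start. Their summits had a median position of -73 bp relative to the nearest start (negative is upstream), with quartiles at -206 and 10 bp, and 72.3% lay upstream. In lists of the same size cut from each replicate by signal, 74.0%, 71.2% and 71.1% lay upstream in replicates 1, 2 and 3 (72.1% ± 1.62, SD, n = 3). Beyond 250 bp from the nearest start lay 23.8% of one-strand and 2.47% of divergent summits. This is a description with no test, because the rule itself used these distances and a divergent summit has starts on both strands to be near to. Of the 2558 summits, 735 lay within 50 bp of the start and 1164 within 100 bp.

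**Figure D1:**
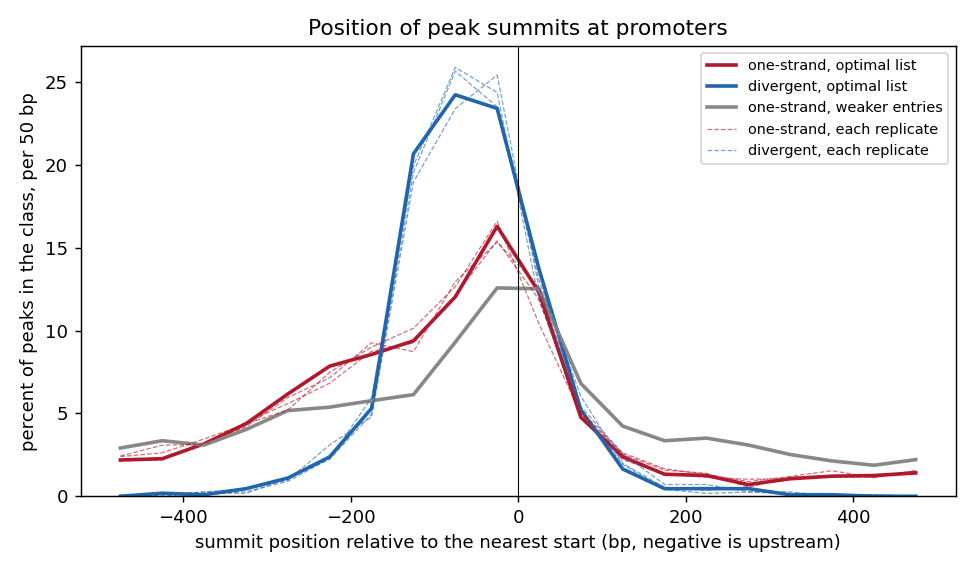
Share of peaks in each class per 50 bp (y axis) by summit position relative to the nearest start in bp (x axis), for one-strand and divergent peaks of the optimal list, each replicate's own top list (dashed) and the one-strand entries below the optimal list. One-strand peaks trail far upstream, divergent peaks are concentrated between -150 and 0 bp, and the weaker entries are the most even around the start.

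The entries too weak for the optimal list were less skewed. The pooled relaxed list held 3847 one-strand entries below the optimal peaks, of which 57.7% lay upstream, with a median position of -31 bp. By gene structure, 53.9% of the 2558 summits fell inside the transcribed span of their own gene and 40.8% inside no protein-coding gene. The annotated starts are those of every transcript, so a summit upstream of its nearest start can lie inside the same gene: 686 summits lay in their own gene outside its exons, and 26 lay in coding sequence of any gene. At the edge of the rule, the summits at BBS8, EcR and Rgl lay 500 bp from a start, with signals of 765, 243 and 219, and those just outside at CG32512, Cyp310a1 and CG3823 lay 502 bp away, with signals of 1178, 898 and 131.

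The 20 strongest one-strand peaks were also among the strongest of every replicate. None ranked below 56 in any replicate, in lists of 30000 entries each, and 18 lay upstream of the start. The 20 were picked by signal in a call on the same 3 replicates pooled, so their high ranks follow in part from that choice. Signal here is the authors' peak score, with no stated scaling between lists, so replicates were compared by rank. The peak at CG14100 had the highest signal of all one-strand peaks, 5191, and ranked 2, 1 and 2 in replicates 1, 2 and 3. The next were at Ugalt, a UDP-galactose transporter, at rank 4 in each replicate, and at PNPase, an RNA-degrading enzyme of mitochondria, at rank 5 in each. The ranks of these 3 peaks thus hardly moved between replicates, although PNPase differs from the others in having its summit 81 bp downstream of the start.

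Further down the same 20, ranks moved by more. Those of kcc, a potassium and chloride cotransporter gene, were 36, 13 and 8, and those of GstE13, a glutathione S-transferase gene, were 22, 28 and 47. Hsp27, a small heat shock protein gene, had ranks of 17, 15 and 21 with its summit 145 bp upstream. The gene of the Polycomb protein ph-p had ranks of 12, 23 and 25 with its summit 471 bp from the nearest start, the greatest distance among the 20. Sox14, which encodes an ecdysone-induced HMG-box factor, had ranks of 43, 48 and 53, and its summit lay 234 bp upstream. The other genes in this group include gish (a casein kinase), larp (an RNA-binding protein), Fkbp14 (a peptidyl-prolyl isomerase), eIF6 (a ribosome assembly factor), Hpf1 (a cofactor of poly-ADP-ribosylation), PAN3 (a subunit of a deadenylase), CG1888, CG43389 and Tina-1.

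As a class, one-strand peaks were not stronger than the list as a whole. Their median signal was 225 (quartiles 162 and 374), against 293 at divergent promoters and 213 away from starts. On a scale where 100 is the strongest peak of a replicate's top list, the median one-strand peak stood at 49.4, 49.1 and 50.7 in replicates 1, 2 and 3, and the median divergent peak at 63.7, 63.9 and 63.2. The groups of replicate values did not overlap, and one-strand peaks stood 13.9 ± 1.24 lower (SD, n = 3, two-sided exact sign-flip permutation test, p = 0.25, which is the smallest p that 3 replicates can give and holds for every such test here). They made up 302 of the 856 strongest peaks of the optimal list (35.3%) and 236 of the 855 weakest (27.6%), with no steady trend between.

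Most one-strand peaks recurred in the replicates. A summit within 100 bp was present in the top lists of all 3 replicates for 1646 of them (64.3%), in those of fewer for 583 and 296, and in none for 33. For divergent peaks the share present in all 3 was 70.7%, for peaks near noncoding starts 67.8% and for peaks away from starts 63.6%. One-strand peaks were thus close to the last of these. The order depended on the cut by signal. Over all relaxed entries the share present in all 3 was 88.7% for one-strand and 87.7% for divergent peaks. It was 88.2% for peaks near noncoding starts and 90.4% for peaks away from starts. The optimal list equals the 8551 entries of highest signal in a call on these same replicates pooled, so part of the recurrence comes from that selection. Across the one-strand peaks matched in both replicates of a pair, Spearman's rho of the ranks was 0.830, 0.787 and 0.804, a description over peaks that share the pooled call and the control. Replicate 3 held fewer one-strand peaks on the X chromosome, 17.0% against 19.8% and 18.2% in replicates 1 and 2. Its whole relaxed list showed the same (15.8% against 19.6% and 18.3%). The part of this in the results was not tested, and depth is unknown because the lists hold no read counts.

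Strength and base composition both varied with where the summit lay. The split used here was chosen after the positions had been seen: near summits lie within 50 bp of the start (735 peaks) and upstream summits beyond 100 bp upstream of it (1125 peaks). Upstream summits were the stronger. On the percentile scale their medians were 58.2, 58.4 and 58.9 in replicates 1, 2 and 3, against 41.4, 42.9 and 43.4 for near summits, a gap of 15.9 ± 0.725 with no overlap (n = 3, exact sign-flip p = 0.25). Upstream summits were also richer in A and T, at 65.7%, 65.2% and 64.6% of bases within 50 bp, against 54.0%, 53.1% and 53.2% for near summits, a gap of 11.7 ± 0.357 percentage points (exact sign-flip p = 0.25). The genome as a whole is 57.9% A and T, so near summits were below that level and upstream summits above it.

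**Figure D2:**
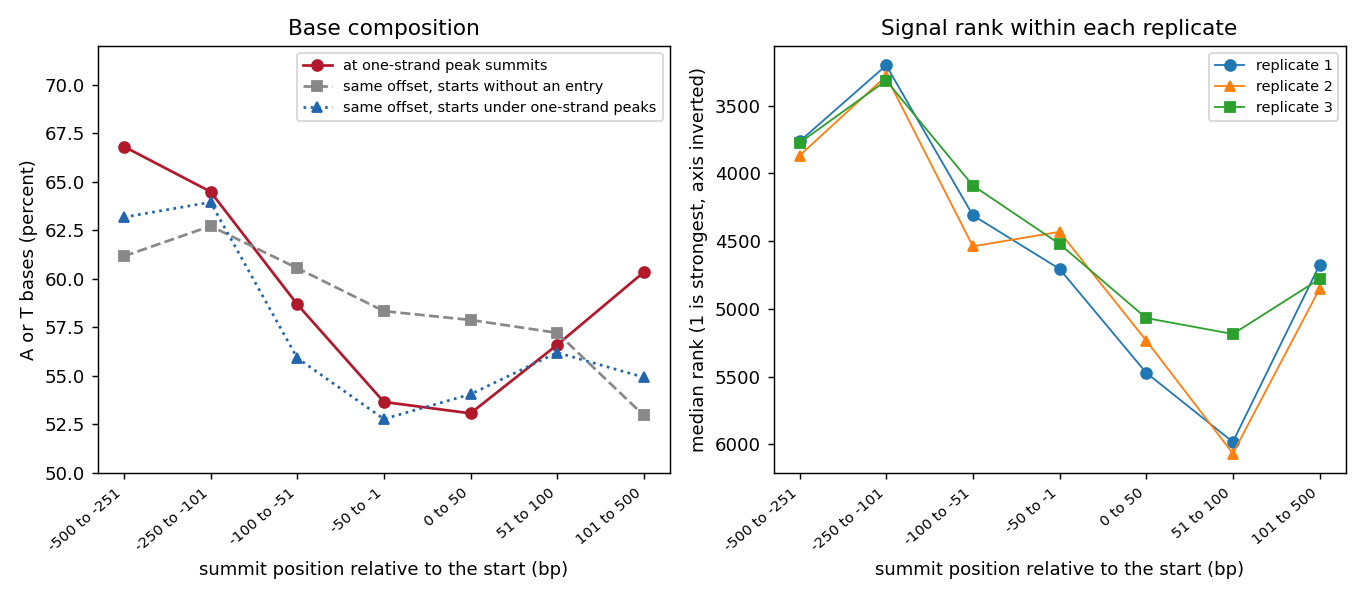
Left, percent of A or T bases within 50 bp of one-strand summits (red) and at the middle of the same distance interval at all starts under one-strand peaks (blue) and at starts without any peak entry (grey), by summit position relative to the start in bp. Right, median rank by signal in each replicate's top list, on an inverted axis. A and T content falls towards the start at summits and bound starts alike, and rank is best in the interval centred on -176 bp.

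A and T content also fell towards the start at fixed offsets from the bound starts. Taken at fixed offsets from the 2402 distinct starts under one-strand peaks, A and T made up 63.9% of the bases around -176 bp and 52.8% around -26 bp. At one-strand starts with no entry in the pooled relaxed list, A and T made up 62.7% of the bases around -176 bp and 58.3% around -26 bp. These are the starts of each gene's canonical transcript, whereas bound starts are the nearest of any transcript. The one-strand summits in the matching intervals were at 64.5% and 53.7%, each within about 1 percentage point of the bound starts at that offset. The bound starts are those that carry the summits, so the windows overlap in part. How much of the slope goes with summit placement was not tested. Around -376 bp the summits had 66.8%, against 63.2% at bound starts and 61.2% at starts with no entry. Around -76 and 300 bp the summits had 58.7% and 60.3%, against 55.9% and 54.9% at bound starts. Around 25 and 75 bp the values were closer, at 53.1% and 56.6% against 54.1% and 56.2%.

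The words under the summits followed the same division, and so did the same words at fixed offsets from the bound starts. The DRE word was present at 7.07% of near summits and 0.889% of upstream summits, and the M1BP word at 6.39% and 0.533%. Both differences had the same sign in every replicate, at -6.76 ± 1.90 and -5.66 ± 0.0604 percentage points, upstream minus near (n = 3, exact sign-flip p = 0.25 each). In the other direction, the TATA word was present at 20.8% of upstream and 8.98% of near summits, the AT-rich word AAATAT at 32.9% and 14.6%, and the homeodomain core TAATTA at 9.24% and 2.72%. At fixed offsets of -26 and -176 bp, the bound starts held the DRE word in 5.50% and 1.04% of windows and the M1BP word in 4.95% and 0.541%. Starts with no entry held the DRE word in 3.20% and 0.557% and the M1BP word in 2.37% and 0.170%, so both words sit close to starts with or without a peak. The TATA word was present around -176 and -26 bp in 19.8% and 9.37% of windows at bound starts, close to the shares at the summits, and in 17.8% and 23.3% at starts with no entry. The near and upstream division thus had the same direction at fixed offsets, but its size differed. At summits from -50 to -1 bp the DRE word stood at 10.8%, against 5.50% at bound starts around -26 bp. At summits from 0 to 50 bp it stood at 2.20%, against 2.29% around 25 bp. The M1BP word stood at 5.52% against 4.95% in the first interval and 7.55% against 4.33% in the second. Of the 381 one-strand peaks with the TATA word within 50 bp of the summit, 20 had it between -40 and -20 bp, where a TATA box acts.

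Around the start itself, from 100 bp before to 50 bp after, promoters with a one-strand peak differed in their elements from one-strand promoters with no entry. Words were searched on both strands, and a match is a run of letters, not a shown binding site. The TATA word was present at 13.4% of the 2402 distinct starts under one-strand peaks and 28.7% of 6452 starts with no entry. Over the replicates these shares were 13.3% ± 0.206 and 29.4% ± 0.0952, 16.1 points apart in mean and not overlapping (exact sign-flip p = 0.25). At the working position of a TATA box, from -40 to -20 bp, the shares were 3.75% and 11.1%. The starts with no entry, and the set of all one-strand starts (24.8% with the word), are those of each gene's canonical transcript. The starts under peaks are instead the nearest of any transcript. With canonical starts on both sides the TATA difference was -12.8 percentage points instead of -15.3.

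Several other elements were more frequent at bound one-strand starts. The repeat GAGAGAG, a target of GAGA factor, was present at 8.95% of them and at 2.22% of starts with no entry, with 3.85% of all one-strand starts. The E-box word CAGCTG of core promoters was present at 14.7% and 8.51% (9.77% of all), the word CATCNCTA at 5.45% and 2.05% (3.11% of all), and the downstream-element word GACGTG at 6.54% and 3.36% (4.25% of all). The DRE word was present at 6.62% and 3.66% (5.05% of all) and the M1BP word at 6.29% and 3.13% (4.39% of all). Each of these was higher at bound starts in all 3 replicates (exact sign-flip p = 0.25 each). With canonical starts on both sides the difference for GAGAGAG was 4.70 points instead of 6.73, and for GACGTG 2.93 instead of 3.17. For the other words named here it was larger, as for the DRE word at 4.48 instead of 2.96. Starts whose only entries were below the optimal list held the DRE word at 6.70%, and the M1BP word at 5.91%, so neither share separated strong from weak peaks.

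**Figure D3:**
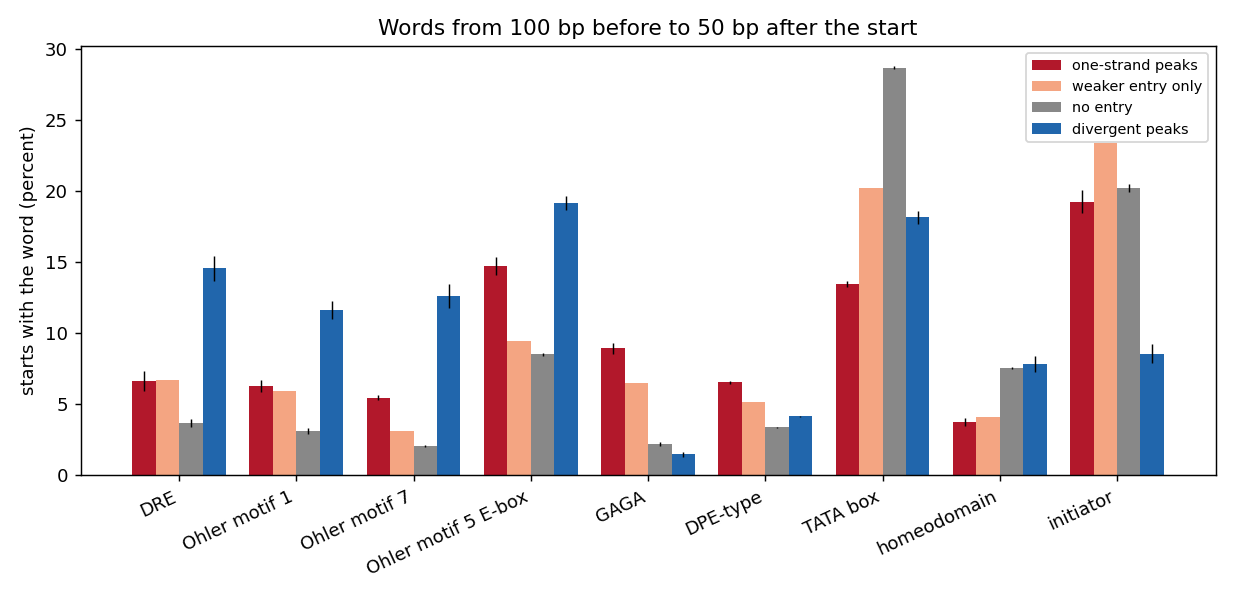
Percent of starts holding each named element word within 100 bp before to 50 bp after the start (y axis) at one-strand peaks, at one-strand starts with only a weaker entry, at those with no entry, and at divergent peaks. Bars are the optimal list and error bars are the SD of 3 replicates, drawn where replicates were computed. The TATA bar is highest at starts with no entry and the GAGA bar at one-strand peaks.

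Against divergent promoters the bound one-strand promoters had another balance. The DRE word reached 14.6% and the M1BP word 11.6% at divergent starts with a peak, each above the one-strand shares. GAGAGAG stood at 1.47% and the initiator word TCAGTT at 8.57% there, against 8.95% and 19.3% at bound one-strand starts. The replicate differences, one-strand minus divergent, were -7.02 points for the DRE word, -5.04 for the M1BP word, 7.10 for GAGAGAG and 10.2 for the initiator word (n = 3, exact sign-flip p = 0.25 each). One-strand starts with no entry held the initiator word at 20.2%, and bound ones were lower than these in every replicate. From -10 to 5 bp the order was the other way, with 9.58% at bound one-strand starts and 6.54% at those with no entry.

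Of 13968 protein-coding genes, 2155 (15.4%) had a one-strand promoter peak and 2043 (14.6%) a divergent one, and 150 had both. Most genes with a one-strand peak had 1, but 315 had 2 and a few had up to 6. Genes that can hold only one-strand peaks, with no opposite-strand start of another gene within 1000 bp, numbered 8827, and 1635 of them (18.5%) had one. Among the 5141 genes that do have such a neighbour, 46.9% had a promoter peak of either kind, which may lie at the start of the neighbour. In the replicates the shares were 19.1%, 18.9% and 18.8% for the first kind of gene and 51.3%, 47.4% and 47.9% for the second, which did not overlap and differed by -29.9 ± 1.97 points (exact sign-flip p = 0.25).

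Of the genes of the first kind with a peak, 47.7% had several annotated starts, against 18.0% of those without, but each further start gives a gene another stretch in which a summit can meet the rule. Length was therefore compared among genes with 1 start. Among genes of the first kind with a single annotated start, the bound share was 5.20% for those up to 1000 bp long, 11.03% for those above 1000 and up to 2000 bp and 23.7% for those above 10000 and up to 20000 bp. It was 19.5% in genes longer than 20000 bp, so the rise did not continue. Rtnl1, a reticulon gene that shapes the endoplasmic reticulum, had 6 one-strand peaks, of which the strongest, with a signal of 1890 and its summit 277 bp upstream of a start, ranked 65, 65 and 86. The others with 6 were dnc, a cyclic AMP phosphodiesterase gene, mtd and SNF4Agamma, which encodes a subunit of AMP-activated kinase. At SNF4Agamma, 2 of the 6 peaks had no summit within 100 bp in the relaxed list of at least 1 replicate. Ptpmeg2, a tyrosine phosphatase gene, had 5, and its strongest ranked 81, 83 and 108. Of all one-strand peaks, 305 (11.9%) had another one-strand summit within 300 bp, as some at Rtnl1, dnc, SNF4Agamma and Ptpmeg2 did. The peaks counted for a gene are therefore not always separate regions.

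Cytoplasmic ribosomal protein genes had the tightest arrangement among the lists. Of 86, 42 had a one-strand peak (48.8%, against 15.4% of all genes) and 33 a divergent one. In the replicates 48.8%, 46.5% and 52.3% had one. Their summits sat on the start: 35 of the 42 lay within 50 bp and 39 within 100 bp, with a median position of -14.5 bp, where 30.3% of all genes with a one-strand peak had their strongest summit within 50 bp. RpL24 had its summit 3 bp from the start, a signal of 1007 and ranks of 337, 424 and 273. RpL23A, at 72 bp, had ranks of 325, 442 and 374, and RpL30, at 16 bp, had 538, 541 and 529. Those 3 ranked in the upper part of each replicate, whereas RpS5b, the weakest, ranked 9414, 9966 and 5574.

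Mitochondrial ribosomal protein genes went the other way. Only mRpL41 of 73 had a one-strand peak, a strong one at ranks 8, 20 and 14, while 34 had a divergent peak. In the replicates 4.11%, 1.37% and 4.11% had a one-strand peak. Of the 15 that can hold only one-strand peaks, none had one. Translation factor genes had 17 of 53 (32.1%, against 15.4% of all genes), with 12 summits within 100 bp. Among them were eEF1gamma at ranks 386, 525 and 382 and eEF2 at ranks 973, 1178 and 1274. Genes of the respiratory chain and ATP synthase had 9 of 87 (10.3%), below all genes, with 8 of the 9 within 100 bp, and proteasome genes had 5 of 48 (10.4%). As a share of those that can hold only one-strand peaks, these lists stood at 20.9% and 22.7%, near or above the 18.5% of such genes overall.

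Glycolysis genes had their peaks upstream instead. Of 13, 8 had a one-strand peak (61.5%, against 15.4% of all genes) and 7 of these lay beyond 100 bp upstream, with a median position of -206.5 bp. Over all genes with a one-strand peak 42.9% had their strongest summit there, and the median was -72 bp. In each replicate 7 genes had an upstream summit. With canonical starts the excess of the list over all genes was 32.6 percentage points instead of 46.1. Gapdh2, the glyceraldehyde-3-phosphate dehydrogenase gene whose TATA word is shown above, had a signal of 2630 and ranks of 33, 32 and 37. Enolase (Eno), at 205 bp, ranked 120, 145 and 142, and lactate dehydrogenase (Ldh), at 208 bp, ranked 277, 263 and 190. Ald1, the aldolase gene, was the exception in place and strength, with its summit 47 bp downstream, ranks of 9539 and 7619 in replicates 1 and 2 and no match in replicate 3.

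**Figure D4:**
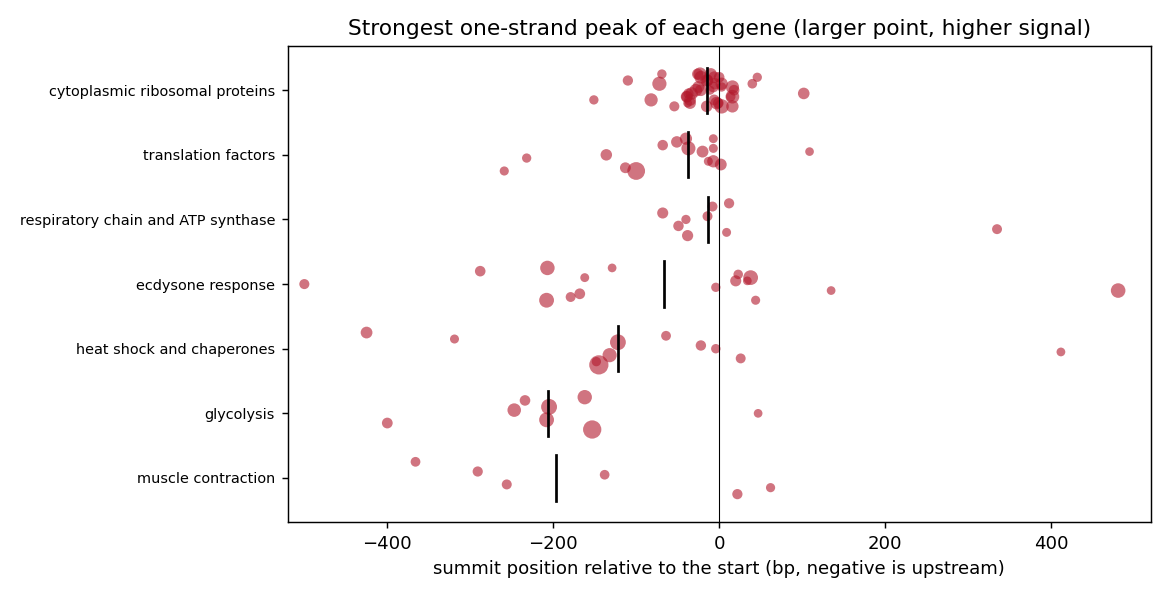
Position of the strongest one-strand peak of each gene relative to its start in bp (x axis) for 7 gene lists, with larger points for higher signal and a black line at the list's median. Points of the ribosomal protein genes pile up at the start, those of the glycolysis genes lie upstream except 1. A translation factor gene, eIF4G2, has no signed position and is not drawn.

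Ecdysone response genes, read out by the steroid hormone that drives molting and pupariation, had 16 of 26 (61.5%) with a one-strand peak and 3 with a divergent one. Of all genes, 15.4% had a one-strand peak, 46.1 percentage points less than in this list. The excess was 30.5, 23.1 and 30.0 points without replicates 1, 2 and 3, when only peaks recurring in both others count, and 21.1 points with canonical starts. In the replicates 53.8%, 65.4% and 65.4% had one. Eip75B, a nuclear receptor gene, had 5 peaks, and its strongest had a summit 38 bp downstream and ranks of 299, 287 and 280. Eip63F-1, which encodes a calcium-binding protein, ranked 260, 364 and 309 with its summit 481 bp downstream of a start. Ldh is in this list too. Other members were weaker and less steady: Hr78 was matched in replicate 2 only, at rank 2242, and ImpE3 ranked 2245, 3231 and 14997.

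Growth, chromatin and signalling genes also had shares above the 15.4% of all genes. No list here was matched to all genes in length or number of starts. The median gene length was 7568 bp in the growth list, 10943 bp in the signalling list and 4795 bp in the Polycomb, trithorax and insulator list. In the cuticle list it was 954.5 bp. Of 33 genes of Hippo, insulin, TOR and Myc growth control, 13 had a one-strand peak (39.4%), among them Pi3K21B, the phosphoinositide kinase adaptor gene, at ranks 568, 462 and 367, and hpo, the Hippo kinase gene, at 931, 996 and 893. Of 44 genes of Wnt, Hedgehog, Notch, Dpp and Egfr signalling, 15 had one (34.1%), led by sgg, the GSK3 gene, at 182, 237 and 177 and by shn, a zinc finger gene of Dpp signalling, at 686, 399 and 238. Among Polycomb, trithorax and insulator genes 13 of 36 had one (36.1%), and 12 had a divergent one. With canonical starts the excess of this last list over all genes was 11.5 percentage points instead of 20.7. That of the growth list was 22.9 instead of 24.0.

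Heat shock and chaperone genes had 11 of 37 (29.7%, against 15.4% of all genes). The strongest were at Hsp27, Hsp83 (ranks 169, 147 and 96) and Hsp26 (374, 347 and 557), all upstream. Membrane traffic genes had 16 of 68 (23.5%) and cell cycle and replication genes 10 of 38 (26.3%). Genes for larval serum, fat body and glue proteins had 6 of 29 (20.7%). Patterning transcription factor genes had 10 of 42 (23.8%), led by bcd, with no divergent peak in the optimal list. Muscle contraction genes had 6 of 22 and neuronal genes 3 of 32, led by elav, an RNA-binding protein of neurons, at ranks 203, 166 and 221. Few cuticle protein genes (2 of 122, 1.64%) and chemosensory genes (3 of 231, 1.30%) had a peak, both below the 15.4% of all genes.

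**Figure D5:**
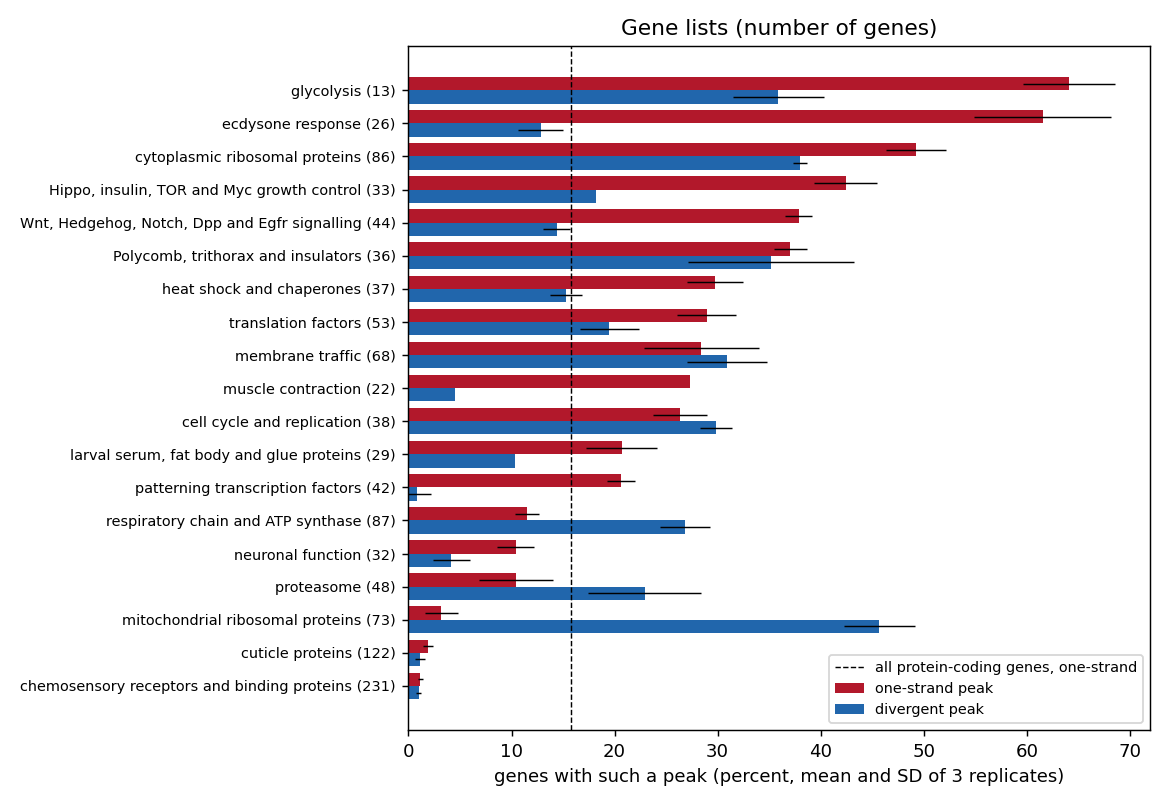
Percent of genes in each of 19 lists with a one-strand peak (red) and with a divergent peak (blue), as the mean over 3 replicates with the SD, and the number of genes in each list in brackets. The dashed line is the one-strand share of all protein-coding genes. Glycolysis and ecdysone response lie far to the right of it, cuticle and chemosensory genes to the left.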

How the data were processed

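Peaks were deposited by the authors on dm6 as a relaxed list of 30000 entries for each of 3 replicates and for the pooled reads, and an optimal list. Their aligner, caller and cut-off were not given in the sources used here. The deposited lists give a signal, a −log10 q-value and a summit offset, which set the summit position. Peaks were ranked by the deposited signal, list by list, and the −log10 q-value that the authors gave was not used for results. The optimal list equals the 8551 pooled entries of highest signal, and each replicate was cut to its own 8551 highest. Summits within 100 bp were matched.

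Starts and genes came from Ensembl release 115 (BDGP6.54) and bases from RefSeq's dm6. The members, the 19 gene lists and the 15 words were chosen with earlier results of these data known, and 3 gene names in the lists were not matched. Genes named are the nearest starts of the 20 strongest peaks and up to 3 per list by signal. The genes with most peaks and the summits at the edge of the rule are named too. For the printed sequences up to 3 per word by signal were taken, leaving out chromosome arm 2R. Ald1, Hr78, ImpE3 and RpS5b were chosen after their values were seen. Open chromatin was not measured. Replicates were compared by a two-sided exact sign-flip test (p at least 0.25); nothing says whether replicates had separate parents, so spread may be technical. Code was tested on simulated data (Python 3.11.15, numpy 2.4.6, pandas 2.3.3, scipy 1.17.1). No sample column was left over.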

Additional observations from a re-analysis of the deposited data

How the results depend on the processing

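No paired analysis was possible because the 3 replicates form 1 group. The sign of the comparisons of rank, bound share, and near and upstream summits, the last with splits chosen after seeing the data, was the same under every alternative run. The number of one-strand peaks fell to 1276 among the stronger part of the optimal list, where 79.7% lay upstream. With a promoter distance of 1000 bp 66.6% lay upstream. A and T at the summits came to 59.1%, 61.3% and 62.7% with 250 bp, with 1000 bp and in the stronger part, and 60.8% to 61.2% with a replicate left out. The share of genes with a one-strand peak was 15.6%, 16.3% and 13.5% with 250 bp, 1000 bp and canonical starts, 8.46% in the stronger part, 18.5% over genes that can hold only such peaks, and 11.5% to 12.3% with a replicate left out. Leaving out a replicate keeps only peaks that recur in both remaining replicates, of which 74.6% to 74.9% lay upstream. Presence in the replicate lists was 50% and 71.0% with matching within 50 and 200 bp, 88.7% over all relaxed entries, 34.8% in top lists cut smaller, and 69.0% to 75.4% in the other replicates when 1 was left out.

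Of the word differences in percentage points, the TATA word at the summit against its flank, negative in the main analysis at -1.76, became 2.92 with 1000 bp and 2.43 in the stronger part. The DRE word at the start became -0.0786 against starts with a weaker entry. The word GTATNTTT became -0.841 in the stronger part, -0.436 against starts with a weaker entry and -0.148 to 0.456 with a replicate left out. The palindromic E-box became 0.385 with canonical starts, 0.365 against weaker entries and -0.0203 to 0.224 with a replicate left out. Against all genes, the patterning list lay at -1.96 to 2.44 points with a replicate left out (reversed without replicates 2 and 3). Over genes that can hold only one-strand peaks, the proteasome list lay 4.20 and the respiratory chain list 2.41 points above, and the muscle list at -2.73. The excess of the signalling list, 18.7 points, was 11.2 without replicate 2 and 9.22 with canonical starts, that of the heat shock list, 14.3, was 7.44 without replicate 2, and that of the cytoplasmic ribosomal list, 33.4, was 17.4 with 1000 bp. The causes were not tested. The absence of read counts and of a second group limits every value.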
